A study of Mus musculus with 7 samples.

Results

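The interferon response and RNA sensing genes described here are 41 mouse genes, chosen by gene symbol from what is known of the pathway, out of 54838 genes in a table of RNA-seq counts. They were chosen with earlier results of these data known, so their shares and medians are descriptions. All 41 were found in the table by their Ensembl identifiers. The 7 libraries were 1 of V6.5, a standard line of mouse embryonic stem cells (ESC), and 6 of colonies of induced pluripotent stem cells (iPSC). Per the design text, the iPSCs were made from splenic germinal center (GC) B cells (B220+ CD38- Fas+) of male mice given SRBC 9 days earlier. The B cells spent 6 days with cytokines on feeder fibroblasts of mouse embryos (MEF) and were reprogrammed by doxycycline (Dox). After 10 days of reprogramming and 4 further days without Dox, colonies were picked by hand, passaged once on gelatin, and freed of MEF by a pre-plating step of 45 min. The 3 GC colonies came from bulk GC B cells. The 3 M colonies are read as coming from GC B cells sorted by an endogenous Myc-GFP reporter of help from T follicular helper cells, since the titles do not spell out M. The medium of all cultures, ESC included, was KO-DMEM with FBS and LIF, and no culture is labelled as treated with interferon. Each colony is 1 clone, and the labels do not give its donor mouse, so p-values measure the spread between these colonies only, and sorted cell, donor and clone cannot be told apart. ESC line, strain and reprogramming history cannot be told apart in the comparison with the single ESC library.

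Cells detect viral or misplaced self RNA with sensors such as RIG-I (Ddx58) and MDA5 (Ifih1), which signal through MAVS and IRF3 to switch on type I interferon genes. Secreted interferon acts through its receptor and a complex that includes STAT2 and IRF9, which binds the interferon-stimulated response element (ISRE) in front of many genes. Interferon gamma acts mainly through another element, the gamma-activated site (GAS). Pluripotent stem cells are known to respond weakly to interferon and to keep some of these genes on without it, the IFITM genes among them.

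Promoter sequence was available from RefSeq (GRCm38.p6) for 32 of the 41 genes, as 38 windows running from 250 bases before to 50 bases after a transcription start. Dhx58, Mx1, Mx2, Oas2, Parp14, Parp9, Rtp4, Usp18 and Zbp1 were not matched. The ISRE core was searched as GAAA, any base at 2 positions and GAAA again, and the GAS core as TTCNNNGAA, on both strands, and the motifs could overlap each other. An ISRE core lay in 18 of the 38 windows (47.4%), against 1122 of 32544 windows of all genes (3.45%). A GAS core lay in 10 of the 38 (26.3%), against 2710 of all windows (8.33%). The Gbp2 and Irf1 sequences are shown because Gbp2 had the smallest adjusted p of the 41 genes against ESC and Irf1 the smallest between the colony groups. The Gbp2 stretch is the 250 bases before its start on the plus strand (chr3:142620413-142620662), with the ISRE core in capitals. The Irf1 stretch is the same for Irf1 on the plus strand (chr11:53769764-53770013), with the GAS core in capitals.
Gbp2: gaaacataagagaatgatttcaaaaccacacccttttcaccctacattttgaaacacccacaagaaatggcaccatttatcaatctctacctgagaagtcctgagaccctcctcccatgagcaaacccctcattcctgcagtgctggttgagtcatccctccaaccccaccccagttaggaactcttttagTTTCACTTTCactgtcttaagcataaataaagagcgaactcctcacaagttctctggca
Irf1: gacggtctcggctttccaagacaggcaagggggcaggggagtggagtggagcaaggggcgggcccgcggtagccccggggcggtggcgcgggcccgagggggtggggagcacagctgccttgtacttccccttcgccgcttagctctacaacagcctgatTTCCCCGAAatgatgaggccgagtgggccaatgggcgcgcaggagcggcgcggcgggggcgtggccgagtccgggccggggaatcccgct

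The ISRE cores of the other 9 genes that passed the test against ESC and held one are set side by side, since these genes moved in both directions while holding the same core. Each is read 5′ to 3′ on its gene's strand, with the core in capitals in either orientation. Gbp3 and Ifitm3 each hold a second core, TTTCTATTTC and GAAAAGGAAA, which is not in capitals here. That of Gbp3 overlaps the core shown. The plus-strand stretches are those of Gbp3 (chr3:142559989-142560018), Gbp7 (chr3:142530273-142530302) and Irf2 (chr8:46739495-46739523). The minus-strand stretches are those of Ddx58 (chr4:40239804-40239833), Ifih1 (chr2:62646206-62646233), Cxcl10 (chr5:92349083-92349112), Oas3 (chr5:120777715-120777744), Ifitm2 (chr7:140955988-140956017) and Ifitm3 (chr7:141010706-141010735).
Gbp3: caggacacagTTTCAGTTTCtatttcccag
Gbp7: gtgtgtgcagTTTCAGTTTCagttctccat
Irf2: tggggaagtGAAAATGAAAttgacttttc
Ddx58: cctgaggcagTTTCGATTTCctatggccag
Ifih1: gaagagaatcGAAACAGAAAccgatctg
Cxcl10: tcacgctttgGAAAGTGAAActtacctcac
Oas3: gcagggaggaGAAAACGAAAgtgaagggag
Ifitm2: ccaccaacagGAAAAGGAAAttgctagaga
Ifitm3: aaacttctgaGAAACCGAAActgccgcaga
Gbp3, Gbp7, Irf2, Ddx58, Ifih1 and Cxcl10 were higher in colonies than in ESC, and Oas3, Ifitm2 and Ifitm3 were lower. Of the 12 genes that rose against ESC, all with a window, 7 held an ISRE core and 6 a GAS core. Of the 5 that fell, 3 held an ISRE core and 1 a GAS core, and of the 15 with a window that passed in neither direction, 8 and 3 did. Neither core was found in the Ifitm1 window, which says only that these letters are not there.

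Total counts ran from 31139508 (ESC) to 35728921 (GC colony 1). Where a gene had 0 counts, up to 3 counts remain possible from counting error alone, which is 0.0832 to 0.101 CPM by library. M colonies 2 and 3 stood apart from their label of male origin: 7 of 9 Y-linked genes were at 0 counts in each, and the 9 summed to 34 and 28 counts, against 5673 to 13187 in the other libraries. Results between the colony groups are therefore also given without both. Levels are CPM, counts relative to library size, scaled by TMM over all 7 libraries. Differences are log2 changes with their standard error (SE) and the Benjamini-Hochberg adjusted p over all genes tested, from edgeR's quasi-likelihood test, two-sided with a threshold of 0.05.

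M colonies held less RNA of 3 interferon genes than GC colonies: Irf1, a transcription factor of the response, Ifitm1, a membrane protein that blocks virus entry, and Zbp1, a sensor of Z-form nucleic acids. They were 1.49-fold, 1.58-fold and 2.17-fold lower. Of the 41 genes, 35 passed the filter on low counts, 3 fell, 0 rose and 32 did not pass the test. Over all 18166 genes tested, 2.27% fell, 1.70% rose and 3.97% were called in either direction. At an unadjusted edgeR p under 0.05, 11 of the 35 were lower and 1 was higher, against 8.67% and 7.97% of all genes tested. DESeq2 called 6 lower and 0 higher, against 3.13% and 2.98%, and added Oas3, Ifitm2 and Dtx3l to the 3. The median log2 difference of the 35 was -0.27, against 0.0027 over all genes tested. All 3 M colonies lay below all 3 GC colonies for 15 of the 35 genes, against 12.0% of all genes tested, and above them for 1 (Irf2), against 10.1%. Groups overlapped for the other 19. Zbp1 lost its call without GC colony 1, GC colony 2, M colony 2 or M colony 3 (log2 change -0.89 and edgeR adjusted p = 0.125 without M colony 3), and Ifitm1 without GC colony 2 (-0.63, 0.0637) or M colony 3 (-0.52, 0.0539). Without GC colony 2 only Irf1 of the 35 was called, and without M colonies 2 and 3 only Oas3. There the log2 change was -0.53 for Irf1 (edgeR adjusted p = 0.0523), -0.35 for Ifitm1 and -0.72 for Zbp1. Over all alternatives the adjusted p ran from 2.15e-07 to 0.0523 for Irf1, from 1.05e-12 to 0.229 for Ifitm1 and from 8.29e-04 to 0.346 for Zbp1.

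Against ESC, the iPSC colonies showed more RNA of 12 interferon genes and less of 5. The guanylate-binding proteins Gbp2, Gbp3 and Gbp7, the chemokine Cxcl10 and the nuclease Isg20 rose, as did Oasl2, Ifit2, Ifi35, Irf1, Irf2 and the sensors Ddx58 and Ifih1. The 3 IFITM genes, Xaf1 and Oas3 fell. Of the 41 genes, 40 passed the filter, and 23 did not pass the test. Over all 20502 genes tested, 8.76% rose, 7.56% fell and 16.3% were called in either direction. At an unadjusted edgeR p under 0.05, 17 of the 40 were higher and 7 lower, against 15.2% and 13.4% of all genes tested, and DESeq2 called 12 higher and 4 lower, against 9.53% and 7.64%. The median log2 difference of the 40 was 0.71, or 0.61 with the genes at 0 counts in ESC set at their lower bound, against 0.015 over all genes tested. A gene that passed the filter only through its level in colonies had to differ, so this median and the counts of higher genes are descriptions. Among the 12 that rose, Ifih1, Gbp3, Isg20 and Cxcl10 were such genes, with 0, 2, 2 and 4 counts in ESC. All 6 colonies lay above ESC for 19 genes and below it for 8, against 25.7% and 25.7% of all genes tested. Without TMM scaling, 68.0% of all calls were rises, against 53.7% with it, and the count for these genes became 14 and 5 with Dtx3l and Parp14 added to the rises. The ESC library is 1 sample, assumed to vary like the colonies. With the 6 colonies as 1 group, 10 rose and 1 fell: Irf1, Irf2, Ifitm1, Ifitm3, Oas3 and Xaf1 were lost, with edgeR adjusted p of 0.148 for Irf1 and 0.107 for Ifitm1. The comparison between colony groups and that with ESC share the 6 colonies, so their values below stand side by side and are not independent.

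**Figure D1:**
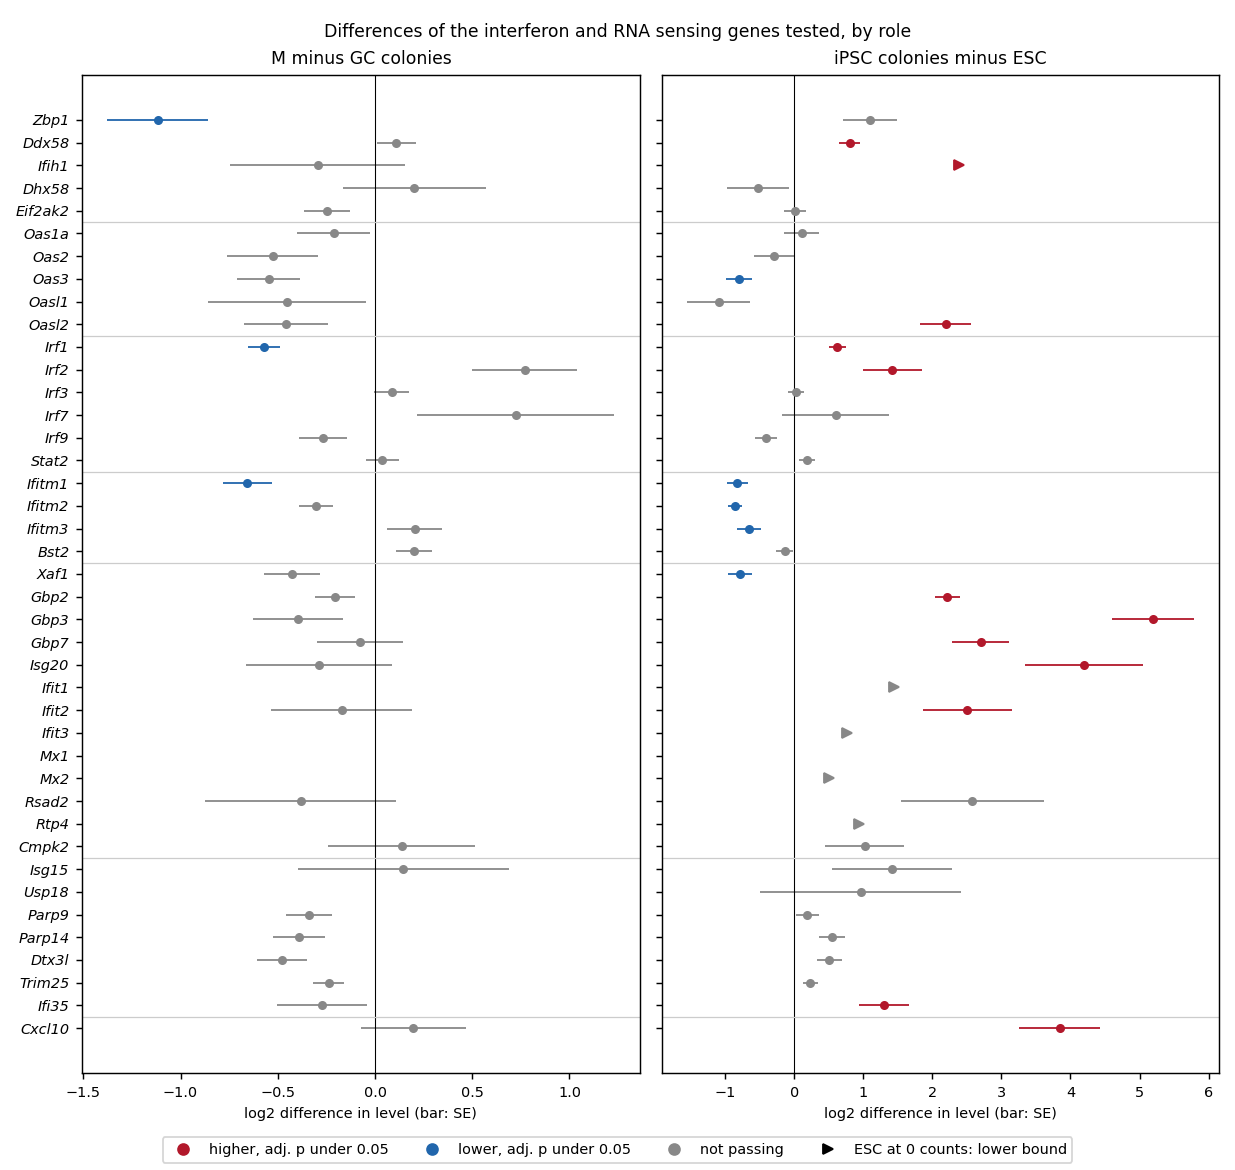
Log2 difference in level (x axis, bars show the SE) of each interferon and RNA sensing gene tested, by role, for M minus GC colonies (left) and iPSC colonies minus ESC (right). Coloured points passed an edgeR adjusted p under 0.05 (3 on the left, all lower, and 17 on the right), and triangles mark lower bounds for genes at 0 counts in ESC.

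**Figure D2:**
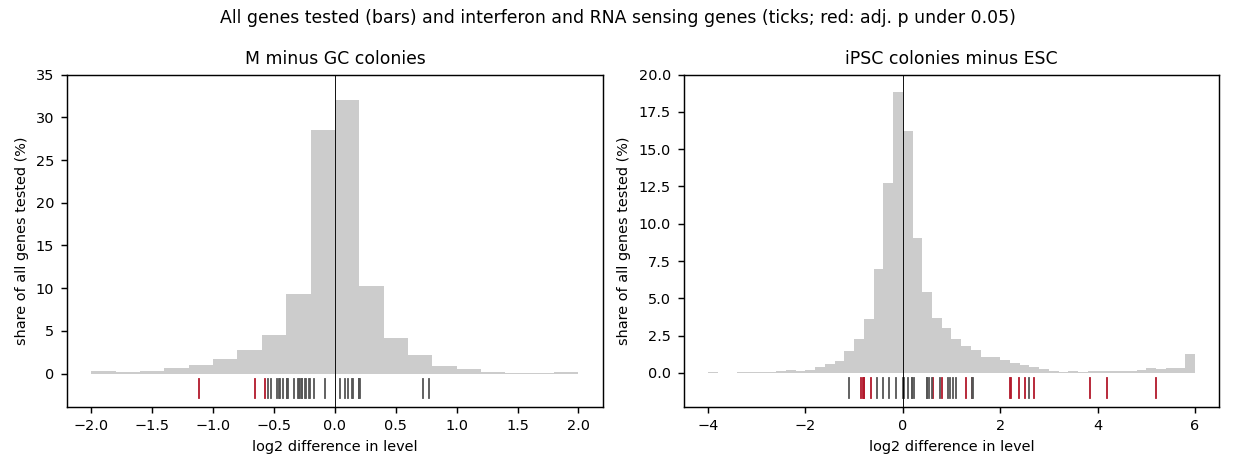
Share of all genes tested (bars, %) by log2 difference, with the interferon and RNA sensing genes as ticks under the axis, red where they passed. The outermost bars also hold the genes beyond the axis. The ticks lie mostly left of 0 for M minus GC colonies (24 of 35) and mostly right of it for colonies minus ESC (30 of 40). Over all genes tested, 8971 of 18166 lay left of 0 in the first and 10563 of 20502 right of it in the second. Genes that passed the filter against ESC only through their level in colonies had to lie on the right.

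Among the RNA sensors and the kinase that acts on RNA, Zbp1 (chr2:173206612-173218923, GRCm38), which starts necroptosis when it binds Z-form RNA, was at 4.33, 4.60 and 3.73 CPM in GC colonies, 2.57, 2.01 and 1.27 in M colonies and 1.34 in ESC. All M colonies were below all GC colonies, and M colony 3 was below ESC. Zbp1 fell by 1.12 ± 0.26 (SE) on the log2 scale in M against GC colonies (edgeR adjusted p = 0.0310), and its difference of 1.096 ± 0.39 from ESC did not pass (edgeR adjusted p = 0.0723), but did without M colony 3 (edgeR adjusted p = 0.0303). Ddx58, which encodes the sensor RIG-I, was at 14.9 CPM in ESC, at 24.8, 24.1 and 26.1 in GC colonies and at 29.9, 27.2 and 24.0 in M colonies. The colony groups overlapped and both lay above ESC, a rise of 0.80 ± 0.15 (edgeR adjusted p = 0.00225), while M and GC colonies differed by 0.11 (edgeR adjusted p = 0.660). Ifih1, which encodes MDA5, had 0 counts in ESC and 0.306 to 0.628 CPM in the 6 colonies, at least 5.23-fold higher than the floor of 3 counts in ESC (edgeR adjusted p = 0.0106). This bound takes the colony mean as measured. Dhx58, which encodes the regulator LGP2, lay between 0.721 and 1.99 CPM in colonies and at 2.08 in ESC and passed in neither comparison. Eif2ak2, which encodes the kinase PKR, was at 20.2 CPM in ESC, 19.7, 21.1 and 25.8 in GC colonies and 17.3, 20.1 and 18.8 in M colonies. The ESC value lay within the GC range and just above all M values, the colony groups overlapped, and neither difference passed (edgeR adjusted p = 0.329 between colony groups and 0.976 against ESC).

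The OAS enzymes make 2-5A, which activates RNase L, and lie in clusters on chromosome 5. Oas3, which detects long double-stranded RNA, was at 16.4 CPM in ESC, at 10.8, 11.9 and 11.3 in GC colonies and at 6.30, 7.37 and 9.63 in M colonies. The 3 groups did not overlap. Oas3 fell by 0.80 ± 0.19 against ESC (edgeR adjusted p = 0.0115), and the difference of -0.55 ± 0.16 between M and GC colonies did not pass (edgeR adjusted p = 0.0839), but was called by DESeq2 (adjusted p = 0.0304) and with no filter on low counts (edgeR adjusted p = 0.0194). Oasl2, an OAS-like protein, was at 1.41 CPM in ESC, at 7.44, 8.05 and 7.19 in GC colonies and at 5.84, 3.59 and 7.13 in M colonies. Every colony was above ESC, a 4.58-fold rise (log2 2.19 ± 0.37, edgeR adjusted p = 0.00110). Oasl1, its neighbour within 40.98 kb, was at 2.41 CPM in ESC and at 0.61 to 1.89 in colonies, below ESC in 6 of 6, and did not pass (log2 -1.10, edgeR adjusted p = 0.128). Oas1a was at 4.89 CPM in ESC, 5.66, 6.31 and 5.05 in GC colonies and 6.05, 4.40 and 4.28 in M colonies. ESC lay below all GC colonies and within the range of the M colonies, and the colony groups overlapped. Oas2 was at 2.81 CPM in ESC, 2.66 to 2.89 in GC colonies and 1.62 to 2.23 in M colonies. Neither passed in either comparison, and the 5 OAS genes had a median log2 difference of -0.46 between M and GC colonies, all 5 below 0.

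Of the transcription factors, Irf1 (ENSMUSG00000018899, chr11:53770014-53778374), which drives many interferon gamma targets, had closely spaced replicates: 37.7, 37.4 and 36.9 CPM in GC colonies, 25.9, 24.1 and 25.6 in M colonies and 19.9 in ESC. The 3 groups did not overlap, with means of 37.3 ± 0.420 (SD, n = 3) in GC and 25.2 ± 0.953 (SD, n = 3) in M colonies. Irf1 fell by 0.57 ± 0.08 in M against GC colonies (edgeR adjusted p = 0.00193) and rose by 0.62 ± 0.12 in colonies against ESC (edgeR adjusted p = 0.00295). Irf2, a partner that can repress Irf1 targets, was at 0.871 CPM in ESC, 1.83, 1.46 and 2.07 in GC colonies and 2.20, 3.11 and 3.87 in M colonies. The 3 groups did not overlap, and M was highest. Irf2 rose by 1.42 ± 0.42 against ESC (edgeR adjusted p = 0.0354), and the difference of 0.77 ± 0.27 between M and GC colonies did not pass (edgeR adjusted p = 0.157). The call against ESC was lost without M colony 2 (log2 change 1.42, edgeR adjusted p = 0.0527) or M colony 3 (1.32, 0.0566), at a similar log2 change. Over all alternatives the adjusted p ran from 0.0172 to 0.117. All genes tested on chromosome 8, where Irf2 and Bst2 lie, had a median log2 difference of -0.25 against ESC, and its part in their values was not tested.

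The factors that carry the signal itself, and Irf7, did not pass the test in either comparison. Irf3, the factor phosphorylated after RNA sensing, was at 27.2 CPM in ESC, 28.7, 26.7 and 25.0 in GC colonies and 28.5, 28.8 and 28.2 in M colonies. Stat2 was at 41.7 CPM in ESC, 46.4, 45.4 and 48.9 in GC colonies and 44.0, 52.9 and 47.7 in M colonies. The colony groups overlapped for both genes. Irf9, the DNA-binding partner of Stat2, was at 15.6 CPM in ESC, 11.9 to 14.6 in GC colonies and 10.4 to 11.3 in M colonies, with no overlap (edgeR adjusted p = 0.305 between colony groups and 0.104 against ESC). Irf7, the interferon-induced amplifier of the response, was at 0.335 CPM in ESC and 0.183 to 0.824 in colonies.

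The IFITM proteins restrict the fusion of viruses with the cell, and their 3 genes lie within 55.93 kb of chromosome 7. Ifitm1 (ENSMUSG00000025491, chr7:140967221-140969825) was at 116 CPM in ESC, 87.2, 84.9 and 74.3 in GC colonies and 64.4, 49.9 and 42.4 in M colonies. The 3 groups did not overlap. Ifitm1 fell by 0.66 ± 0.12 in M against GC colonies (edgeR adjusted p = 0.0105) and by 0.83 ± 0.15 in colonies against ESC (edgeR adjusted p = 0.00197). Ifitm2 was at 167 CPM in ESC, 112, 106 and 88.4 in GC colonies and 82.8, 87.2 and 78.8 in M colonies. It fell by 0.86 ± 0.11 against ESC (edgeR adjusted p = 1.12e-04), and the difference of -0.30 ± 0.09 between M and GC colonies did not pass (edgeR adjusted p = 0.0771), but was called by DESeq2 (adjusted p = 0.0261) and with no filter (edgeR adjusted p = 0.00555). Of its 655 exonic bases, 268 are shared with Gm45717 on the same strand, so its level is uncertain. Ifitm3 was at 129 CPM in ESC, 81.4, 78.3 and 68.7 in GC colonies and 63.6, 101 and 98.8 in M colonies. The M colonies split, with M colony 1 below all GC colonies and M colonies 2 and 3 above them. Ifitm3 fell by 0.66 ± 0.17 against ESC (edgeR adjusted p = 0.0188), a call that DESeq2 did not make (DESeq2 adjusted p = 0.0838). Its difference of 0.21 ± 0.14 between M and GC colonies (edgeR adjusted p = 0.529) became a rise of 0.39 without M colony 1 (edgeR adjusted p = 0.0225) and turned to -0.26 without M colonies 2 and 3. Bst2, or tetherin, which holds budding virus at the surface, was at 76.2 CPM in ESC, 69.5, 67.9 and 56.0 in GC colonies and 80.4, 68.1 and 74.2 in M colonies, with the colony groups overlapping, and passed in neither comparison.

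**Figure D3:**
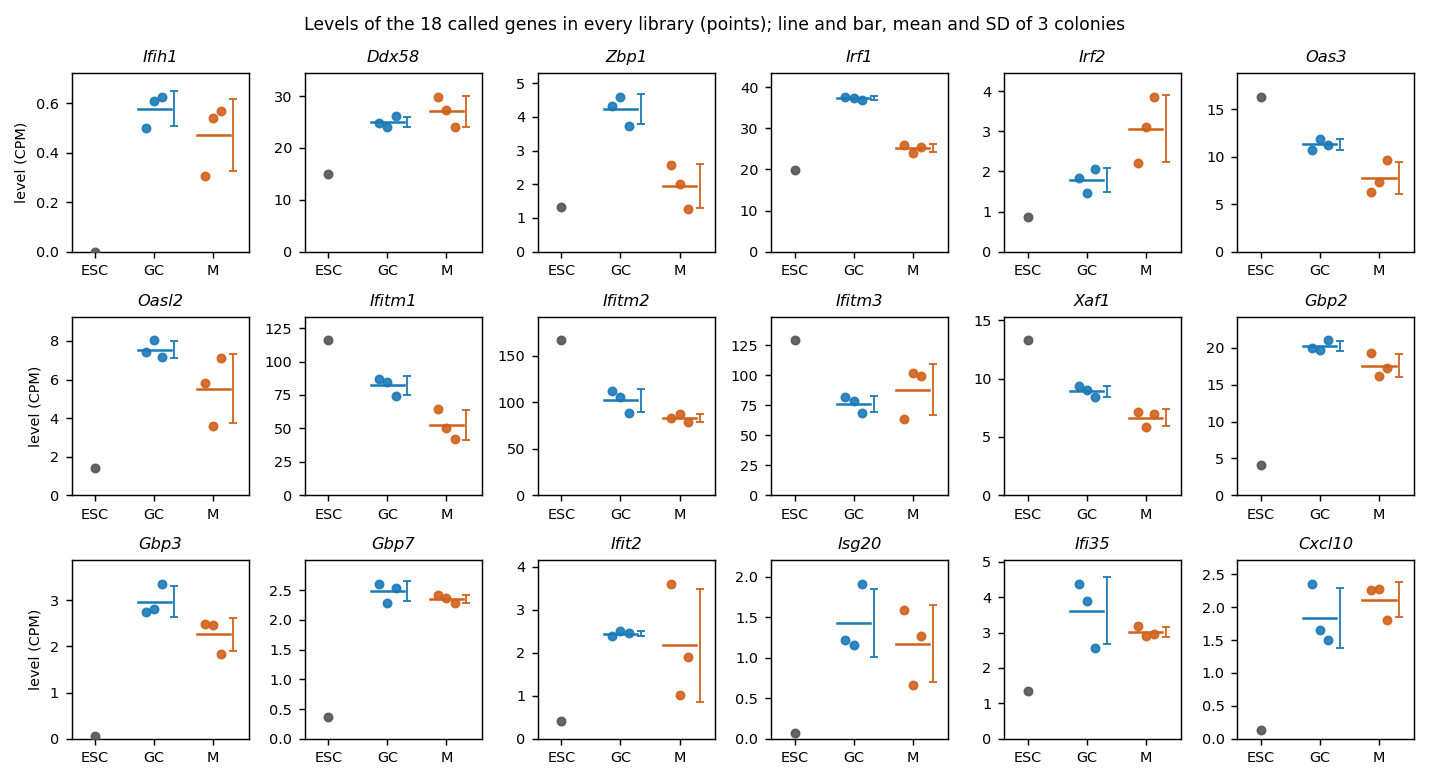
Level (CPM, linear axis from 0) of the 18 interferon and RNA sensing genes called in either comparison, in each library (points), with the mean and SD of the 3 GC and 3 M colonies and the single ESC library. Irf1 shows 3 separate levels, with ESC lowest at 19.9, M colonies at 24.1 to 25.9 and GC colonies at 36.9 to 37.7.

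The guanylate-binding proteins are GTPases that attack vacuoles of intracellular pathogens, and Gbp2, Gbp3 and Gbp7 lie within 107.7 kb of chromosome 3. Gbp2 was at 4.05 CPM in ESC, 20.004, 19.7 and 21.1 in GC colonies and 19.3, 16.2 and 17.2 in M colonies. All 6 colonies were far above ESC, a 4.65-fold rise (log2 2.22 ± 0.18, edgeR adjusted p = 7.40e-06). Gbp3 was at 2 counts (0.067 CPM) in ESC, 2.75, 2.80 and 3.36 CPM in GC colonies and 2.48, 2.46 and 1.84 in M colonies. Its ratio of colonies to ESC was 39.0, with a 95% exact counting interval of 10.8 to 323 (edgeR adjusted p = 7.13e-05). Gbp7 was at 0.369 CPM in ESC, 2.61, 2.29 and 2.54 in GC colonies and 2.41, 2.37 and 2.28 in M colonies, a 6.497-fold rise (SE of the log2 change 0.42, edgeR adjusted p = 6.12e-04). All M values of Gbp2 and Gbp3 were below all GC values, while those of Gbp7 overlapped, and none of the 3 passed between the colony groups.

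Other cytosolic effectors were mostly low. Isg20, an exonuclease that degrades RNA, was at 2 counts (0.067 CPM) in ESC, 1.22, 1.16 and 1.91 CPM in GC colonies and 1.59, 0.659 and 1.27 in M colonies, a ratio of 19.4 with a 95% counting interval of 5.30 to 160 (edgeR adjusted p = 0.00452). Ifit2, which binds viral RNA and the translation machinery, was at 0.402 CPM in ESC, 2.39, 2.50 and 2.45 in GC colonies and 3.61, 1.02 and 1.90 in M colonies. The M colonies spread more than the GC colonies and all 6 were above ESC, a rise of 2.51 ± 0.65 (edgeR adjusted p = 0.0177). Xaf1, a gene that promotes cell death, was at 13.3 CPM in ESC, 9.35, 8.99 and 8.38 in GC colonies and 7.15, 5.81 and 6.97 in M colonies. The 3 groups did not overlap. Xaf1 fell by 0.79 ± 0.17 against ESC (edgeR adjusted p = 0.00702), and the difference of -0.43 between M and GC colonies did not pass (edgeR adjusted p = 0.144). Cmpk2, a mitochondrial nucleotide kinase, lay at 0.469 CPM in ESC and 0.611 to 1.27 in colonies and passed in neither comparison.

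Several effectors that interferon induces strongly in other cells were near the floor here. Ifit1, Ifit3, Mx1, Mx2 and Rtp4 had 0 counts in ESC and at most 0.377 CPM in any colony, and Ifih1 was the only other of the 41 genes at 0 in ESC. Against the ESC floor of 0.101 CPM the colony means were at least 2.71-fold higher for Ifit1, 1.92-fold for Rtp4, 1.70-fold for Ifit3, 1.42-fold for Mx2 and 1.33-fold for Mx1. These bounds take the colony mean as measured and would be lower if both reads of a pair were counted singly, which was not tested. Mx1 did not pass the filter in either comparison, and the other 4 did not pass the test against ESC. Mx2 is annotated as a polymorphic pseudogene. Rsad2, which encodes viperin, was at 2 counts in ESC and 0.317 to 0.671 CPM in colonies, a ratio of 6.33 with a 95% counting interval of 1.70 to 53.0, and did not pass (edgeR adjusted p = 0.116). Neither Ifit1, Ifit3, Mx1, Mx2, Usp18 nor Rtp4 passed the filter between the colony groups.

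Of the ubiquitin, ISG15 and PARP regulators, Ifi35 alone passed. It was at 1.34 CPM in ESC, 4.38, 3.90 and 2.57 in GC colonies and 3.18, 2.90 and 2.95 in M colonies, a rise of 1.30 ± 0.36 against ESC (edgeR adjusted p = 0.0241). Trim25, the ubiquitin ligase that activates RIG-I, was at 129 CPM in ESC, 152, 153 and 186 in GC colonies and 135, 145 and 136 in M colonies. All M values were below all GC values, and neither difference passed (log2 -0.24 ± 0.08, edgeR adjusted p = 0.140 between colony groups and 0.184 against ESC), though the first did with no filter (edgeR adjusted p = 0.0335). Parp9, Dtx3l and Parp14 lie within 139.7 kb of chromosome 16. Parp9 and Dtx3l form a complex that modifies histones, and share 458 exonic bases on opposite strands. Parp9 was at 12.8 CPM in ESC, 18.1, 14.4 and 16.8 in GC colonies and 13.5, 12.8 and 12.7 in M colonies, and Dtx3l was at 9.85 CPM in ESC, 14.7, 17.5 and 17.3 in GC colonies and 13.4, 11.7 and 10.5 in M colonies. Parp14, a mono-ADP-ribosyltransferase, was at 6.23 CPM in ESC, 9.60 to 11.4 in GC colonies and 7.38 to 8.28 in M colonies. All M values of these 3 neighbours were below all GC values, and none passed (edgeR adjusted p = 0.153, 0.0593 and 0.148), but Dtx3l was called by DESeq2 (adjusted p = 0.0176) and with no filter (edgeR adjusted p = 0.0147). Isg15, the ubiquitin-like modifier, lay at 0.302 CPM in ESC and 0.251 to 1.32 in colonies. Usp18, which removes ISG15 from proteins and blocks receptor signalling, was at 2 counts in ESC, a ratio of 2.27 with a 95% counting interval of 0.573 to 19.5.

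Cxcl10, the T cell chemokine, was at 4 counts (0.134 CPM) in ESC, 2.36, 1.65 and 1.51 CPM in GC colonies and 2.26, 2.28 and 1.81 in M colonies. The colony groups overlapped, and all 6 colonies were above ESC, a rise of 3.84 ± 0.59 (edgeR adjusted p = 5.68e-04).

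Per kilobase of exon, the order of mean levels over the 6 colonies ran from Ifitm2 (141 CPM per kb), Ifitm3 (121), Bst2 (76.8), Ifitm1 (61.4) and Trim25 (26.3) to Irf3 (8.04), Stat2 (8.02), Irf1 (7.86) and Gbp2 (7.52), with Mx1 lowest (0.0353). Irf3, Stat2, Irf1 and Gbp2 stood close together. Over the 41 genes the summed level was 839 CPM in ESC, 780 to 798 in GC colonies and 687 to 711 in M colonies, with no overlap and with the IFITM genes, Trim25 and Bst2 making up most of each sum.

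Genes around the 41 in the pathway were read from 4 lists of 119 genes. Over all genes tested between the colony groups, 1.70% rose and 2.27% fell. Of 17 tested ligands, receptors and signalling genes, 0 rose and 0 fell by edgeR between the colony groups (2 higher and 1 lower at an unadjusted p under 0.05, 1 higher in DESeq2), with a median of 0.05. All 10 interferon ligand genes were at or near 0: 8 had 0 counts in every library, and none had more than 4. Of 21 sensing adaptors and kinases and of 14 genes that limit self nucleic acids, 0 rose and 0 fell by edgeR between the colony groups (2 higher and 1 lower, and 0 higher and 1 lower, at an unadjusted p under 0.05; 0 in DESeq2). Trex1, a DNA exonuclease of that list, was at 0 counts in all libraries, and all of its 1147 exonic bases are shared with Atrip on the same strand, so its level cannot be read. Of 41 tested genes of the other interferon-induced list, 0 rose (2 higher at an unadjusted p, 1 in DESeq2) and 4 fell in M against GC colonies, with a median of -0.18. Ddx60, a helper of RIG-I, was at 4.83, 5.76 and 6.28 CPM in GC colonies and 2.81, 1.98 and 1.90 in M colonies, a fall of 1.33 ± 0.22 (edgeR adjusted p = 0.00414). Sp110 was at 24.0, 25.7 and 23.1 CPM in GC colonies, 4.89, 11.4 and 11.5 in M colonies and 3.22 in ESC, a fall of 1.39 ± 0.23 (edgeR adjusted p = 0.00498). Apobec3, a cytidine deaminase that acts on retroviruses, fell by 0.41 ± 0.06 from 213 to 229 CPM in GC colonies to 153 to 172 in M colonies (edgeR adjusted p = 0.00329). Phf11d fell by 0.54 ± 0.10 (edgeR adjusted p = 0.00822). M and GC colonies did not overlap for any of these 4 genes, which were named because they passed this same comparison. Over all genes tested, 12.0% had all 3 M values below all 3 GC values. Without M colonies 2 and 3, Sp110 alone of the 4 was still called, with a log2 change of -2.31. Ddx60 was then at -0.999 (edgeR adjusted p = 0.122), Apobec3 at -0.35 (0.118) and Phf11d at -0.44 (0.205). The Phf11d call was also lost without GC colony 2 (edgeR adjusted p = 0.068) or M colony 3 (0.058).

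Over all genes tested against ESC, 8.76% rose and 7.56% fell. Against ESC, 1 of the 17 signalling genes rose (Il10rb, a receptor chain) and 1 fell (Irf8, a lymphoid and myeloid factor), with a median of -0.0096. Of the 21 adaptors and kinases, Ikbke, Tmem173 (the adaptor STING) and Ripk1 rose, and Zc3hav1 (the antiviral protein ZAP) and Mavs, the adaptor of RIG-I and MDA5, fell. Zc3hav1 was at 73.7 CPM in ESC and 31.0 to 43.5 in colonies, a fall of 1.02 ± 0.13 (edgeR adjusted p = 1.72e-04), and Mavs fell by 0.43 ± 0.13 (edgeR adjusted p = 0.0367). The Mavs call was lost without GC colony 2, M colony 3 or M colonies 2 and 3, with library totals and with colonies as 1 group (largest edgeR adjusted p = 0.0784), and that of Il10rb without GC colony 1 or 2 and with colonies as 1 group (largest 0.0699). Of the 14 genes limiting self nucleic acids, 0 rose by edgeR (0 at an unadjusted p, 0 in DESeq2) and Rnaseh2a, an RNase H2 subunit, fell by 0.42 ± 0.10. Of the 41 other interferon-induced genes, 11 rose and 2 fell, with a median of 0.79. Genes of this list that passed the filter only through their level in colonies had to differ. This median and the count of higher genes are therefore descriptions. Irgm1, an immunity-related GTPase, was at 1.31 CPM in ESC and 4.66 to 7.62 in colonies (log2 2.25 ± 0.29, edgeR adjusted p = 1.77e-04). Cxcl11, of the same chemokine family as Cxcl10 but annotated as a polymorphic pseudogene, was at 6 counts (0.201 CPM) in ESC and 1.16 to 2.80 CPM in colonies. It passed the filter only through its level in colonies. Parp10, Sp110, Ifi27 and Ddx60 also rose. Irf8, Rnaseh2a and Ddx60 lie on chromosome 8, whose tested genes had a median log2 difference of -0.25 against ESC. The part of this shift in their values was not tested.

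Markers of other cell types were read beside these results, since the libraries are of bulk RNA, in which fewer cells of a type and less RNA per cell cannot be told apart. Of all genes tested, 8.76% rose and 7.56% fell against ESC, and 1.70% and 2.27% between the colony groups. The 20 fibroblast (feeder) markers summed to 669 CPM in ESC, 1133 to 1245 in GC colonies and 1148 to 1467 in M colonies. Of 18 tested, 9 rose and 0 fell against ESC (0 lower at an unadjusted edgeR p, 0 in DESeq2), with Col1a1 at 212 CPM in ESC and 291 to 408 in colonies. Between the colony groups 0 of 18 passed by edgeR (1 higher at an unadjusted p, 0 in DESeq2), and the sums overlapped. The 12 B cell markers summed to 15.9 CPM in ESC, 18.1 to 18.9 in GC colonies and 14.2 to 16.9 in M colonies, with Ms4a1 at 0 counts in 6 of 7 libraries and Ptprc at 0 in ESC and at most 8 counts elsewhere. No B cell marker tested passed by edgeR in either comparison (0 at an unadjusted p between the colony groups, 1 lower against ESC, 0 in DESeq2). The 10 macrophage markers summed to 102 CPM in ESC, 96.6 to 101 in GC colonies and 77.2 to 101 in M colonies. Of 9 tested, 3 rose against ESC, among them Csf1r, at 0 counts in ESC and 2.29 to 4.40 CPM in colonies, and of 8 tested between the colony groups Lyz2 rose. The 10 pluripotent stem cell markers summed to 7741 CPM in ESC and 5761 to 6251 in colonies. Against ESC 7 of the 10 fell and Lin28a rose (log2 0.75 ± 0.08, edgeR adjusted p = 3.74e-05). Between the colony groups Pou5f1 rose by 0.39 ± 0.05 (edgeR adjusted p = 0.00120), from 372 to 378 CPM in GC colonies to 478 to 502 in M colonies. Of the 10 tested, 1 rose and 0 fell by edgeR. At an unadjusted edgeR p under 0.05, 1 was higher and 4 were lower, and DESeq2 called 1 higher and 1 lower. The 4 lower were Sox2, Nanog, Zfp42 and Fgf4, with log2 changes of -0.17, -0.24, -0.53 and -0.18. The higher fibroblast sum, the rises of Csf1r, Lyz2 and Mrc1 (with no higher macrophage sum) and the lower pluripotent sum against ESC stood beside the 12 interferon genes that rose and the 5 that fell there, and their part in them was not tested. The part of the Lyz2 and Pou5f1 rises in the 3 falls between the colony groups was not tested.

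**Figure D4:**
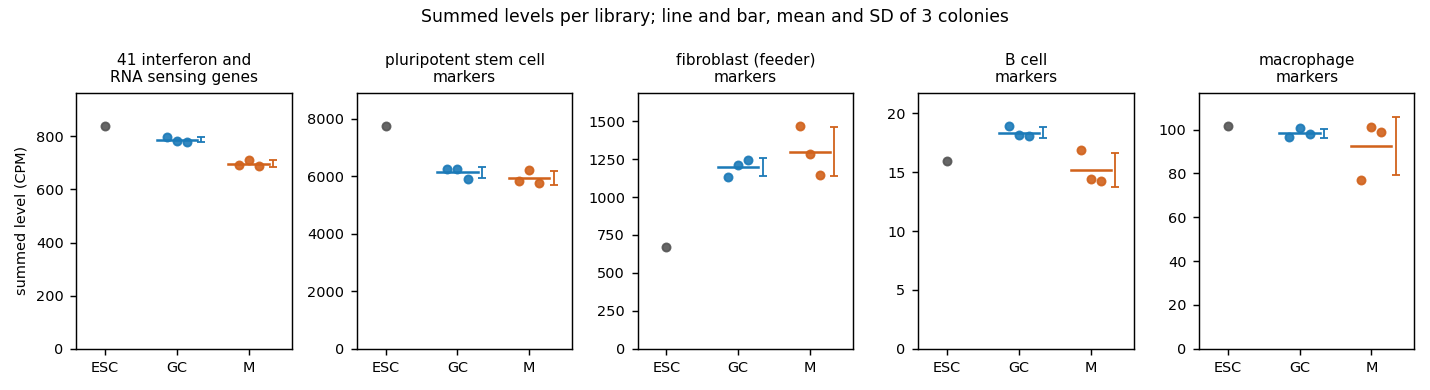
Summed level (CPM, axes from 0) of the 41 interferon and RNA sensing genes and of 4 marker lists in each library (points), with the mean and SD of the 3 GC and 3 M colonies. The interferon sum lies at 780 to 798 in GC and 687 to 711 in M colonies, while the fibroblast sum is 669 in ESC and at least 1133 in every colony.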

How the data were processed

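RNA-seq counts of 7 mouse libraries were used: 1 ESC, 3 GC colonies and 3 M colonies. The table deposited by the authors holds raw counts per Ensembl gene. Tools named in the submitters' processing notes are STAR 2.7.10a and featureCounts 2.0.6 with mm10 (GRCm38), and DESeq2 without a version. Libraries were non-stranded poly-A with paired 150-base reads in the design text but from a directional kit in the sample protocol. Whether counting used strand is not given in these sources, so reads of overlapping genes cannot be told apart. Among counts of 1 to 49, 68.5% to 72.2% were even, against 49.5% to 50.9% at 1000 or more. Whether the mates of a pair were counted singly was not tested. If they were, counting intervals may be too narrow and the floor of 3 counts too low, since both cover counting error only.

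Symbols and positions came from GENCODE M21, which matched 54809 of 54838 genes. Counts were filtered with filterByExpr, scaled by TMM and tested with edgeR 4.0.16 in R 4.3.3, in a script first tested on simulated data. The SE is the log2 change over the square root of F. M against GC colonies used the 6 colonies, and colonies against ESC, as the average of the GC and M groups, all 7. Folds against 0 counts are lower bounds at the floor of 3 counts, with the colony mean as measured. ESC counts of 1 to 3 get an exact binomial 95% interval. Alternatives were RLE scaling, library totals, no filter, DESeq2 1.42.0, a replicate block, colonies as 1 group, leaving out each colony, and leaving out M colonies 2 and 3, which was chosen after seeing the data. All 41 genes could be named. Every-library values were given for the genes called in either comparison and for the 8 most abundant per length of the others. Up to 6 called genes of each pathway list and comparison could be named, by smallest adjusted p. The 41 genes, the 4 pathway lists (interferon ligands, receptors and signalling, sensing adaptors and kinases, limiting of self nucleic acids, other interferon-induced genes) and the 4 marker lists (pluripotent stem cell, fibroblast, B cell, macrophage) were chosen with earlier results of these data known.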

Additional observations from a re-analysis of the deposited data

Results flagged for a closer look

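In 41 groups of 6 colonies, 1 for each gene, 2 had a colony set apart by the gap to its nearest neighbour over the range, past Dixon's 95% critical value, which chance passes in about 1 of 20 groups. Rsad2 had a ratio of 0.654, with GC colony 2 at 0.671 CPM against 0.439 in the next colony, at counts near the floor. Trim25 had a ratio of 0.65, with GC colony 3 at 186 CPM against 153 in the next.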

How the results depend on the processing

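Of the interferon genes, 3 fell between the colony groups; 7 did so with no filter on low counts, 6 in DESeq2, 5 with a replicate block (Oas3 and Ifitm2 added), 1 without M colonies 2 and 3, and 1 to 4 when a colony was left out, where 0 to 1 rose. Same-numbered colonies correlated at 0.105, 0.0915 and 0.14, and the others at -0.132 to 0.0384. Each colony correlated best with its own number, at low values that do not settle whether the numbers pair the samples. No block was possible with 1 ESC library. Against ESC, 12 rose and 5 fell; colonies as 1 group left 10 and 1, and leaving out a colony gave 11 to 12 and 5 to 5. Over all genes between the colony groups, 308 rose (656 with no filter, 541 in DESeq2, 161 without M colonies 2 and 3, 88 to 419 leaving out a colony) and 413 fell (662, 212 without both M colonies, 156 to 419). Against ESC, 1795 rose and 1549 fell: 1182 and 909 with colonies as 1 group, 2145 and 1011 with library totals, and 1460 to 1933 and 1115 to 1785 leaving out a colony. Other pathway genes between the colony groups: 0 rose (3 with no filter, 2 in DESeq2, 1 with the replicate block, 0 to 2 leaving out a colony) and 4 fell (7 in DESeq2, 1 without both M colonies, 3 to 6). Against ESC, 15 rose (9 as 1 group, 12 to 16) and 6 fell (3 as 1 group, 3 with library totals, 3 to 8). Signs of log2 differences that did not pass reversed for 9 genes. Without M colonies 2 and 3, differences between the colony groups became -0.26 (Ifitm3), 0.091 (Oas1a), -0.092 (Stat2), -0.073 (Isg15), 0.15 (Isg20), 0.56 (Ifit2) and -0.58 (Cmpk2), and Eif2ak2 against ESC -0.045. Leaving out each colony gave -0.034 to 0.10 (Stat2), -0.31 to 0.72 (Isg15), -0.75 to 0.17 (Ifit2), -0.10 to 0.53 (Dhx58) and -0.060 to 0.40 (Cmpk2) between the colony groups, and -0.047 to 0.054 (Eif2ak2) against ESC. Leaving out colonies tests fewer samples; the cause of the other changes was not tested. Counts of 10 interferon genes in ESC were at most 3, which limits their ratios.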
